A study of Mus musculus with 4 samples.

Results

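The genes for the IL-33 receptor ST2 and its relatives in the IL-1 receptor family were examined in splenic regulatory T (Treg) cells with and without Setd2, the methyltransferase that deposits H3K36me3. The group held 10 genes, picked by symbol from the 24087 genes measured: the receptor chains Il1rl1 (ST2), Il18r1, Il1r1 and Il1rl2, the accessory chains Il1rap and Il18rap, the decoy receptor Il1r2, the inhibitory receptor Sigirr, and Myd88 and Irak4, which carry the signal inside the cell. KO Treg cells came from Foxp3Cre-YFPSetd2f/f mice, and control cells (CTRL) from Foxp3Cre-YFPSetd2f/+ littermates, all on the C57BL/6 background and at steady state. The controls therefore carried the Foxp3-driven Cre and 1 floxed Setd2 allele too, and no group lacked either. Cells were sorted from spleen as CD3+CD4+YFP+. There were 2 libraries per genotype, each pooled from 2 mice with about 1000000 cells, and the age of these mice was given only by the general statement of 6 to 12 weeks in the study's methods. Values are FPKM, which are read pairs scaled by gene length and by library size, so that levels of different genes can be set side by side.

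Receptors of this family share extracellular immunoglobulin-like domains and, except for the decoy, an intracellular TIR domain. A ligand first binds its own chain (ST2 for IL-33, the IL-1 receptor for IL-1α and IL-1β, the IL-18 receptor α chain for IL-18, the IL-36 receptor for IL-36 cytokines), and an accessory chain then joins. The paired TIR domains recruit MyD88 and the kinase IRAK4, and the signal passes through TRAF6 to NF-κB and MAP kinases. ST2 marks a set of Treg cells in tissues such as the intestine that respond to the alarmin IL-33.

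At least 30575941 to 33184295 reads lay behind each library. CTRL 1 had 19100 genes above 0, and the other libraries had 15913 to 16410. All 6 Treg markers, Foxp3 and Il2ra among them, were at 74.2 FPKM or more in every library, and the 4 T cell markers found at 204 FPKM or more. The targeted gene Setd2 was at 23.4 and 25.3 FPKM in the controls, compared with 21.3 and 19.5 FPKM in KO. Both KO libraries were lower, as the labels give, but the difference did not pass the threshold (log2 fold change -0.24, standard error 0.076, adjusted p 0.0970 by limma). This value covers the whole gene, and the floxed exons were not analysed here. Myeloid and neutrophil markers were higher in CTRL 1 and KO 1 than in the other libraries, and their values stand beside the results they touch.

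Of the 10 family genes, Il1rl1 was lower and Myd88 was higher in KO Treg cells, and the other 6 genes that could be tested did not pass the threshold of adjusted p under 0.05. The fold changes were computed on log2(FPKM + 1) with limma, over the 11399 genes at 1 FPKM or more in at least 2 libraries, and p was adjusted over all of these genes by the Benjamini-Hochberg method. Il1r1 and Il1rl2 stayed under 1 FPKM in every library and were not tested. Among all genes tested, 4.65% were called lower and 5.10% higher. The family had 1 of 8 in each direction, and its median log2 fold change was 0.061, compared with -0.022 over all genes tested. Each p measures only the spread between these libraries, with each gene's variance drawn toward a trend over all genes tested. In pooled bulk RNA, fewer cells that express a gene and less of its RNA per cell cannot be told apart.

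**Figure D1:**
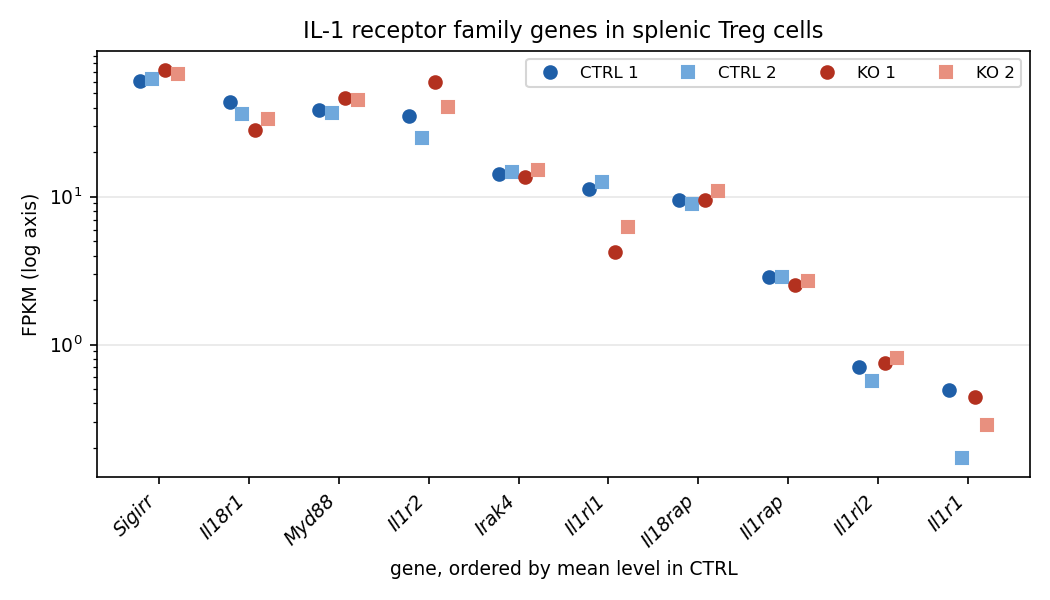
FPKM of the 10 genes in each library on a log axis, ordered by their mean in CTRL. Circles are the libraries numbered 1 and squares those numbered 2, CTRL in blue and KO in red. Il1rl1 was at 11.2 and 12.6 FPKM in the controls, compared with 4.21 and 6.25 FPKM in KO, with no overlap, while Irak4 overlapped between the groups.

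Il1rl1 (ENSMUSG00000026069, chromosome 1, 40429570 to 40465415, plus strand, GRCm38) encodes ST2, the chain that binds IL-33. It was at 11.2 FPKM in CTRL 1, 12.6 FPKM in CTRL 2, 4.21 FPKM in KO 1 and 6.25 FPKM in KO 2, with at least 2550, 3044, 1036 and 1543 reads. Both KO libraries lay below both controls, and the gap between the groups was wider than the spread within either. Mean Il1rl1 dropped from 11.9 ± 1.0 to 5.23 ± 1.4 FPKM (mean ± SD over 2 libraries each), for a log2 fold change of -1.07 with a 95% interval of -1.51 to -0.62 (limma, adjusted p 0.0379). The study singled out Il1rl1 partly on RNA of these mice, so that this call is not independent evidence. The call was lost with no filter on low values (adjusted p 0.0948 by limma), and with any 1 library left out the difference kept its sign but not its call. Leaving out CTRL 1 gave an adjusted p of 0.140 and leaving out CTRL 2 gave 0.153, while it was 0.110 with KO 1 removed and 0.0888 with KO 2 removed (limma, with 1 library left in that arm).

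The annotation holds 5 coding transcripts of Il1rl1, which bears on what its FPKM covers. The long form, of 567 residues, is the membrane receptor, and a short form, of 337 residues, is the soluble ST2 that binds IL-33 without signalling. The long transcripts start at 40439627 and 40440628. Of the short ones, 1 starts upstream, at 40429570, and another at 40439776, near the start of a long one. A transcript of 65 residues starts at 40436589. The deposited value is 1 number per gene, so that long and short forms, and all starts, were measured together and their shares were not analysed here.

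Because transcription starts at separate places, the 250 bases ahead of each of the 2 RefSeq starts of Il1rl1 (GRCm38.p6, plus strand) are shown, at chr1:40429320-40429569 for the upstream start and chr1:40439379-40439628 for the downstream one. They were searched for 4 hexamers that GATA factors, such as GATA3, are known to bind. These were AGATAA, its variant AGATAG, the related TGATAA and its variant TGATAG, each on both strands. Matches are in capitals, and a match on the other strand is shown as its reverse complement.
Il1rl1 upstream start: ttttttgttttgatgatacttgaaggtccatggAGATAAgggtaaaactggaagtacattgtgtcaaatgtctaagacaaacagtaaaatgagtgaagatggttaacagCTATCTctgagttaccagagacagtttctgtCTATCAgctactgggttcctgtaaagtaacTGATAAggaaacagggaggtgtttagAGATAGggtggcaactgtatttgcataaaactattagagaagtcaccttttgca
Il1rl1 downstream start: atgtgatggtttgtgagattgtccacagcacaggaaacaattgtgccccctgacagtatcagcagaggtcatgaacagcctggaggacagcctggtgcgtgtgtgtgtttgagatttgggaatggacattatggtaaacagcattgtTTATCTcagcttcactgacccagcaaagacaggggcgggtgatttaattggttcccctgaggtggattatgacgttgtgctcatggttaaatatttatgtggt
The upstream window held 5 matches and the downstream window held 1. Of 32851 windows of the same length, ahead of starts of 27025 genes, 8718 (26.5%) held at least 1 match, 2103 (6.4%) at least 2 and 14 (0.043%) at least 5. Among the other family genes, Il1r2 and Il18rap had 1 match each and Il18r1, Il1r1, Il1rl2, Il1rap, Myd88 and Irak4 had 0. These are matches of letters and no binding was measured. The windows compared were not matched for base composition. Gata3 RNA was at 53.1 and 63.3 FPKM in the controls, compared with 60.2 and 65.9 FPKM in KO, and the groups overlapped (log2 fold change 0.12, limma, adjusted p 0.457). GATA3 protein was not measured here. In spleens of mice treated with IL-2 complexes, the study reported fewer GATA3+ Treg cells in KO by flow cytometry, with Gata3 mRNA unaltered.

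The accessory chain Il1rap (chromosome 16, 26581704 to 26730117) joins ST2, the IL-1 receptor and the IL-36 receptor alike. It was at 2.88 FPKM in CTRL 1, 2.88 FPKM in CTRL 2, 2.52 FPKM in KO 1 and 2.70 FPKM in KO 2. Both KO libraries were slightly lower, but the log2 fold change of -0.10 had a 95% interval of -0.36 to 0.15 (limma, adjusted p 0.497). Il1rl1 was thus above its partner in every library, with a ratio of Il1rl1 to Il1rap of 3.87 and 4.38 in CTRL and of 1.67 and 2.31 in KO. The ratios did not overlap, and an exact two-sided permutation test gave p = 0.333, the smallest it can give for 2 libraries against 2.

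The IL-18 receptor pair was more abundant than the IL-33 pair, and its chains had fold changes of opposite sign, neither past the threshold. Il18r1 (chromosome 1, 40465552 to 40500854), which binds IL-18, was at 44.0 FPKM in CTRL 1, 36.4 FPKM in CTRL 2, 28.2 FPKM in KO 1 and 33.6 FPKM in KO 2. Both KO libraries lay below the controls, although KO 2 and CTRL 2 were close. Il18r1 was at 40.2 ± 5.4 in CTRL and 30.9 ± 3.8 FPKM in KO (mean ± SD over 2 libraries each), for a log2 fold change of -0.37 with a 95% interval of -0.69 to -0.043, and it did not pass the threshold (limma, adjusted p 0.114). The difference was -0.62 between KO 1 and CTRL 1 and -0.11 between KO 2 and CTRL 2.

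Il18rap (chromosome 1, 40515362 to 40551705), the accessory chain for IL-18, was at 9.51 FPKM in CTRL 1, 8.99 FPKM in CTRL 2, 9.54 FPKM in KO 1 and 11.0 FPKM in KO 2. KO 1 was level with CTRL 1, so that the groups were separated by KO 2 mainly, and the log2 fold change of 0.14 did not pass the threshold (95% interval -0.10 to 0.38, limma, adjusted p 0.350). The ratio of Il18r1 to Il18rap was 4.63 and 4.05 in CTRL and 2.96 and 3.05 in KO. These ratios did not overlap either (exact permutation test, p = 0.333, the smallest possible).

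The receptors for IL-1 and IL-36 were at the edge of detection. Il1r1, the signalling receptor for IL-1 (chromosome 1, 40225080 to 40317257), was at 0.490 and 0.172 FPKM in the controls, compared with 0.439 and 0.286 FPKM in KO, from at least 10 to 27 reads. The groups overlapped. Il1rl2, the IL-36 receptor (chromosome 1, 40324610 to 40367562), was at 0.703 and 0.563 FPKM in the controls, compared with 0.755 and 0.810 FPKM in KO, from at least 38 to 56 reads. Both KO libraries were above both controls, but CTRL 1 was nearer to KO 1 than to CTRL 2, and no test was made at this level.

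**Figure D2:**
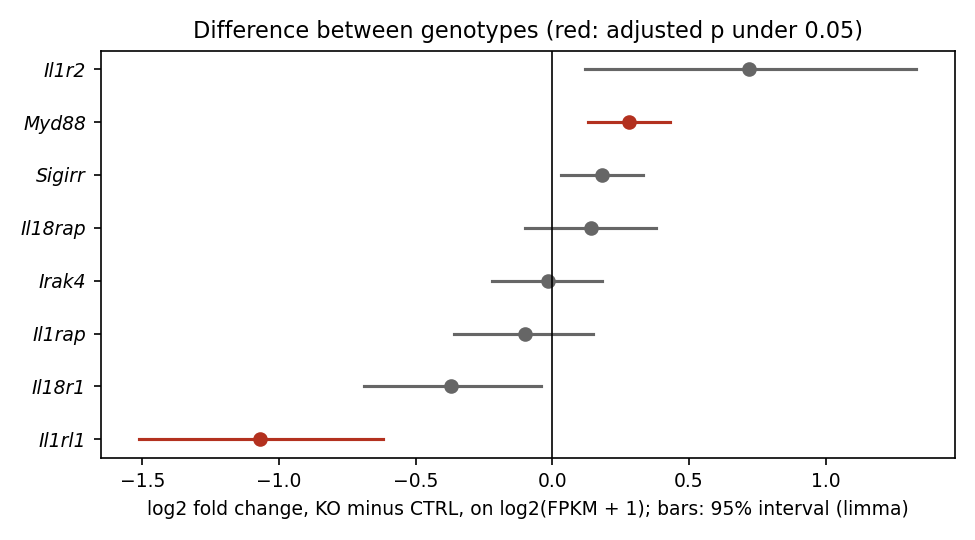
Log2 fold change of KO against CTRL for the 8 genes tested, with bars for the 95% interval (limma, n = 2 libraries per group) and red for adjusted p under 0.05. Il1rl1 lay at -1.07 and Myd88 at 0.28, while the intervals of Il18r1, Sigirr and Il1r2 left out 0 without passing the adjusted threshold.

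The genes that limit signalling, Il1r2 and Sigirr, had fold changes above 0, of which neither passed the threshold. Il1r2 (chromosome 1, 40074079 to 40125231) encodes a decoy that takes up IL-1 and lacks a TIR domain, and its longest annotated product, of 410 residues, is shorter than that of Il1r1, of 576. It was at 35.0 FPKM in CTRL 1, 24.8 FPKM in CTRL 2, 59.9 FPKM in KO 1 and 40.5 FPKM in KO 2. Each KO library was above both controls, but libraries of the same genotype differed widely. The mean was 29.9 ± 7.2 FPKM in CTRL and 50.2 ± 14 FPKM in KO (SD, n = 2 libraries each), and the log2 fold change of 0.72 did not pass the threshold (95% interval 0.12 to 1.33, limma, adjusted p 0.104).

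Il1r2 is also known to be abundant in neutrophils and monocytes, so its level was set beside the markers of these cells. Summed FPKM of the 5 neutrophil markers (S100a8, S100a9, Ly6g, Retnlg and Ngp) was 13.4 for CTRL 1 and 0.243 for CTRL 2, against 54.1 for KO 1 and 2.26 for KO 2, and S100a8, Ly6g and Retnlg were at 0 in at least 1 library. The 6 myeloid markers (Lyz2, Csf1r, Itgam, Cd14, Csf3r and Fcgr3) summed to 165, 102, 207 and 84.9 FPKM, so that CTRL 1 and KO 1 were high in both lists, as they were for Il1r2 within each genotype. Between the libraries with low neutrophil markers, KO 2 and CTRL 2, the Il1r2 difference was 0.69 on the log2 scale, against 0.76 between KO 1 and CTRL 1. The part of such cells in the Il1r2 difference was not tested.

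**Figure D3:**
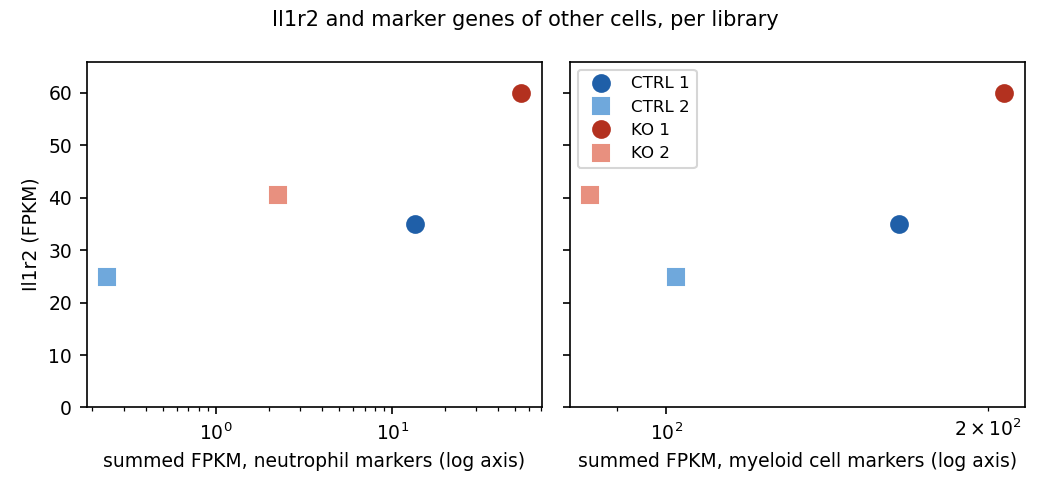
Il1r2 FPKM in each library against the summed FPKM of neutrophil markers (left) and myeloid markers (right), both on log axes, with CTRL in blue and KO in red. In CTRL 1 and CTRL 2, Il1r2 was at 35.0 and 24.8 FPKM with 13.4 and 0.243 FPKM of neutrophil markers. In KO 1 and KO 2, Il1r2 was at 59.9 and 40.5 FPKM with 54.1 and 2.26 FPKM of these markers. The part of such cells in the Il1r2 difference was not tested.

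Sigirr (chromosome 7, 141091175 to 141100572, minus strand), a receptor with a single immunoglobulin-like domain that dampens IL-1 family signals, was the most abundant gene of the family. It was at 60.7 FPKM in CTRL 1, 62.5 FPKM in CTRL 2, 71.8 FPKM in KO 1 and 67.9 FPKM in KO 2. The KO libraries were above the controls by a small step (61.6 ± 1.3 and 69.9 ± 2.8 FPKM, SD, n = 2 per group). The log2 fold change of 0.18, with a 95% interval of 0.032 to 0.33, did not pass the threshold (limma, adjusted p 0.101).

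Myd88 (chromosome 9, 119335934 to 119341411, minus strand), the adaptor that all signalling receptors of the family and most Toll-like receptors use, was at 38.3 FPKM in CTRL 1, 36.8 FPKM in CTRL 2, 46.7 FPKM in KO 1 and 44.9 FPKM in KO 2. The libraries of a genotype lay close together and the groups did not overlap. Mean Myd88 rose from 37.5 ± 1.1 to 45.8 ± 1.2 FPKM (mean ± SD over 2 libraries each), for a log2 fold change of 0.28 with a 95% interval of 0.13 to 0.43 (limma, adjusted p 0.0486). This was near the threshold, and the call was lost when each library was scaled to the same summed FPKM (adjusted p 0.0507), after quantile normalization (0.0685), without a variance trend (0.0746) or with no filter on low values (0.0929). It was also lost with 1 library left out (adjusted p 0.150 and 0.168 when CTRL 1 or CTRL 2 was removed, 0.170 and 0.129 when KO 1 or KO 2 was). Acaa1a, on the opposite strand, overlaps Myd88 and was at up to 27.1 FPKM, and the use of strand in counting was not given, so that reads of both genes may be mixed.

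Irak4 (chromosome 15, 94543643 to 94581815), the kinase that MyD88 recruits, was at 14.2 and 14.8 FPKM in the controls, compared with 13.6 and 15.1 FPKM in KO. The groups overlapped, and the log2 fold change of -0.016 had a 95% interval of -0.22 to 0.18 (limma, adjusted p 0.906). Its sign turned with the scaling, to 0.007 after median-ratio scaling and 0.011 after quantile normalization. Twf1, at up to 25.5 FPKM, overlaps Irak4 on the opposite strand. Il1r2 and Il1rap have antisense neighbours too (Gm16894, up to 1.48 FPKM, and Gm20319, up to 0.160 FPKM).

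Of the 8 genes tested, 4 had both KO libraries above and 3 both below the controls, against 29.0% and 35.5% of all genes tested. These 7 of 8 stood beside 64.5% for either direction. In CTRL the order of mean levels was Sigirr, Il18r1, Myd88, Il1r2, Irak4, Il1rl1, Il18rap, Il1rap, Il1rl2 and Il1r1. The values of Il18r1 and Myd88 overlapped, and the other neighbours in this order did not. In KO, Il1r2 moved ahead of Myd88 and Il18r1 into the place after Sigirr, with values that overlapped those of Myd88. Il1rl1 moved below Il18rap, its values of 4.21 and 6.25 FPKM lying under 9.54 and 11.0 FPKM. The ratio of Il1r2 to Il1rl1 was 3.13 and 1.96 in CTRL and 14.2 and 6.49 in KO (exact permutation test, p = 0.333, the smallest possible). That of Il1r2 to Il1r1 overlapped, at 71.3 and 144 in CTRL and 137 and 142 in KO, with Il1r1 under 1 FPKM throughout.

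Il1r2, Il1r1, Il1rl2, Il1rl1, Il18r1 and Il18rap follow each other in this order and on the same strand over 477.6 kb of chromosome 1 (40074079 to 40551705). Il1rl1 ends 136 bp before Il18r1 starts, and these neighbours were the genes of the cluster with both KO libraries below both controls. The same held for 35.5% of all genes tested, and Il18r1 did not pass the threshold. Il1rl1 and Il18r1 differed in size of change, with log2 fold changes of -1.07 and -0.37. The ratio of Il1rl1 to Il18r1 was 0.253 and 0.347 in CTRL and 0.149 and 0.186 in KO (exact permutation test, p = 0.333, the smallest possible). Il18rap, the next gene, and Il1r2, at the far end, had fold changes above 0. Within 500 kb on either side, 8 more protein-coding genes were measured. Only Map4k4, a kinase gene upstream of Il1r2, was expressed enough to be tested, at 42.6 and 46.7 FPKM in the controls and 49.9 and 48.9 FPKM in KO (log2 fold change 0.14, limma, adjusted p 0.196). The other 7 were at 0.638 FPKM or less.

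**Figure D4:**
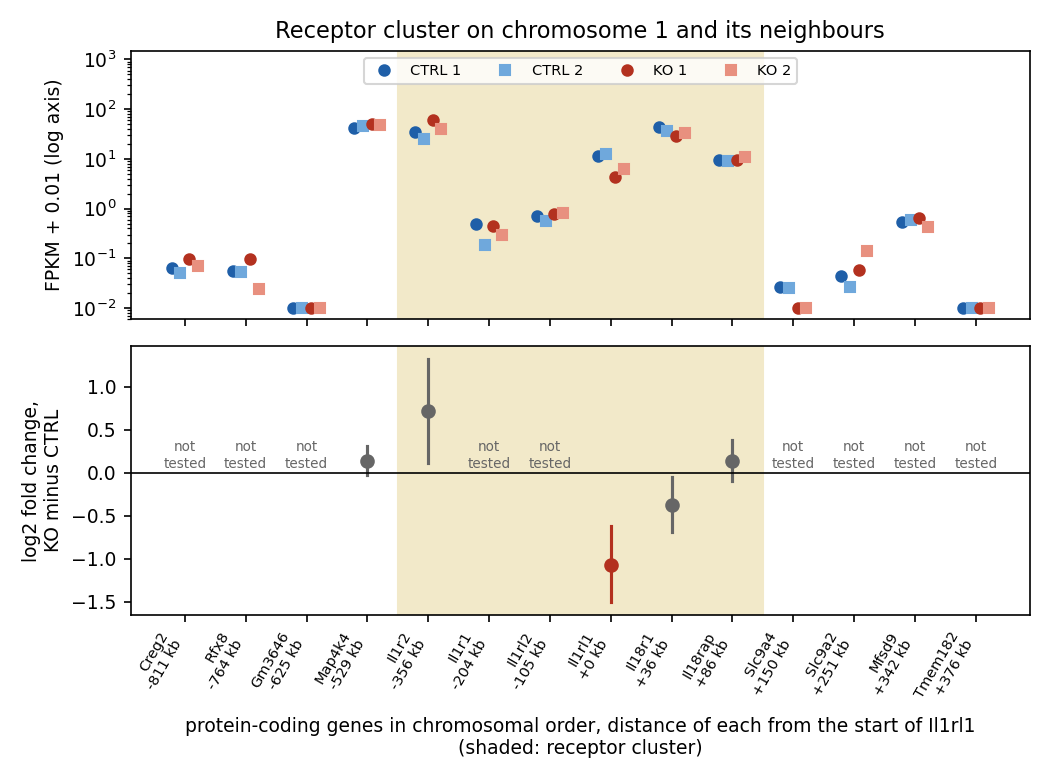
FPKM + 0.01 per library (top, log axis) and log2 fold change of KO against CTRL with its 95% interval (bottom, limma) for protein-coding genes in chromosomal order, labelled with their distance in kb from the start of Il1rl1. The shaded receptor cluster holds Il1rl1, at -1.07 the gene called in red, between Il1rl2, which was not tested, and Il18r1, at -0.37.

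The ligands were examined next, from a list of 11 genes for IL-1 family cytokines and their soluble inhibitors, to show which of them the sorted cells held RNA for. Il33 was at most at trace level, with at least 1 read in CTRL 1, 2 in KO 1 and 0 in CTRL 2 and KO 2. The IL-36 family genes Il1f6, Il1f8, Il1f9 and Il1f5, and Il1f10, were at 0.172 FPKM or less. Of the 4 ligand genes tested, 0 passed the threshold in limma, and at an unadjusted p under 0.05 there was 1, Il1rn, higher in KO as were 16.3% of all genes tested.

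Il1rn, which encodes the IL-1 receptor antagonist, was at 0.986 and 0.848 FPKM in the controls, compared with 2.08 and 1.71 FPKM in KO, and reached the filter on low values through its KO libraries alone (log2 fold change 0.59, limma, adjusted p 0.0553). Il18 was at 9.22 and 5.27 FPKM in the controls and 9.58 and 7.20 FPKM in KO. Its soluble inhibitor Il18bp was at 8.52 and 7.89 FPKM in the controls and 10.2 and 7.76 FPKM in KO, and both genes overlapped between the groups. Il1b, a cytokine of myeloid cells, was at 2.71 and 1.96 FPKM in the controls and 3.18 and 0.892 FPKM in KO, and Il1a was at 1.36 and 0.556 FPKM in the controls and 0.875 and 0.414 FPKM in KO. Il18, Il18bp, Il1b and Il1a were all higher in the libraries numbered 1, as were the myeloid markers given above. The part of those cells in these levels was not tested.

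Downstream of MyD88 and IRAK4, 24 of 24 listed genes could be tested. Of these, 2 were lower (4.65% of all genes tested were), 0 were higher and 22 did not pass the threshold, and their median log2 fold change was -0.10. Both KO libraries lay below both controls for 13 of them and above for 4, against 35.5% and 29.0% of all genes tested. At an unadjusted p under 0.05 in limma there were 3 higher and 7 lower genes, where 16.3% and 18.4% of all genes tested were. Ikbkb, the IKKβ kinase that releases NF-κB, was at 56.8 FPKM in CTRL 1, 58.1 FPKM in CTRL 2, 45.6 FPKM in KO 1 and 47.4 FPKM in KO 2. It fell in KO with no overlap, by 0.30 on the log2 scale (limma, adjusted p 0.0420). Peli2, a ubiquitin ligase of the IRAK complex, fell from 1.43 and 1.61 FPKM to 0.605 and 0.661 FPKM (log2 fold change -0.63, limma, adjusted p 0.0487). It reached the filter on low values through its CTRL libraries alone, so that its call carries no weight of its own and Ikbkb is the call that remains. With no filter on low values, 0 ligand and downstream genes were called lower, so that the Ikbkb call was lost too.

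Among the genes that did not pass, Nfkbia, the inhibitor IκBα that NF-κB itself induces, was the nearest. It was at 443 FPKM in CTRL 1, 526 FPKM in CTRL 2, 842 FPKM in KO 1 and 650 FPKM in KO 2, a log2 fold change of 0.62 (limma, adjusted p 0.0622). The NF-κB subunit Rela was at 78.7 and 86.0 FPKM in the controls and 103 and 92.4 FPKM in KO, and Nfkb1 overlapped, at 113 and 115 FPKM against 117 and 114 FPKM. Over the 24 genes, the fold change was above 0 for 10 and below 0 for 14, against 5271 and 6128 of the 11399 genes tested. IRAK-family Irak1 and Irak2 were at -0.13 and 0.073, the ubiquitin ligase Traf6 was at 0.0042, and the inhibitor Tollip was at 0.18, none past the threshold. Overlaps of these genes with genes on the opposite strand were not examined here.

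**Figure D5:**
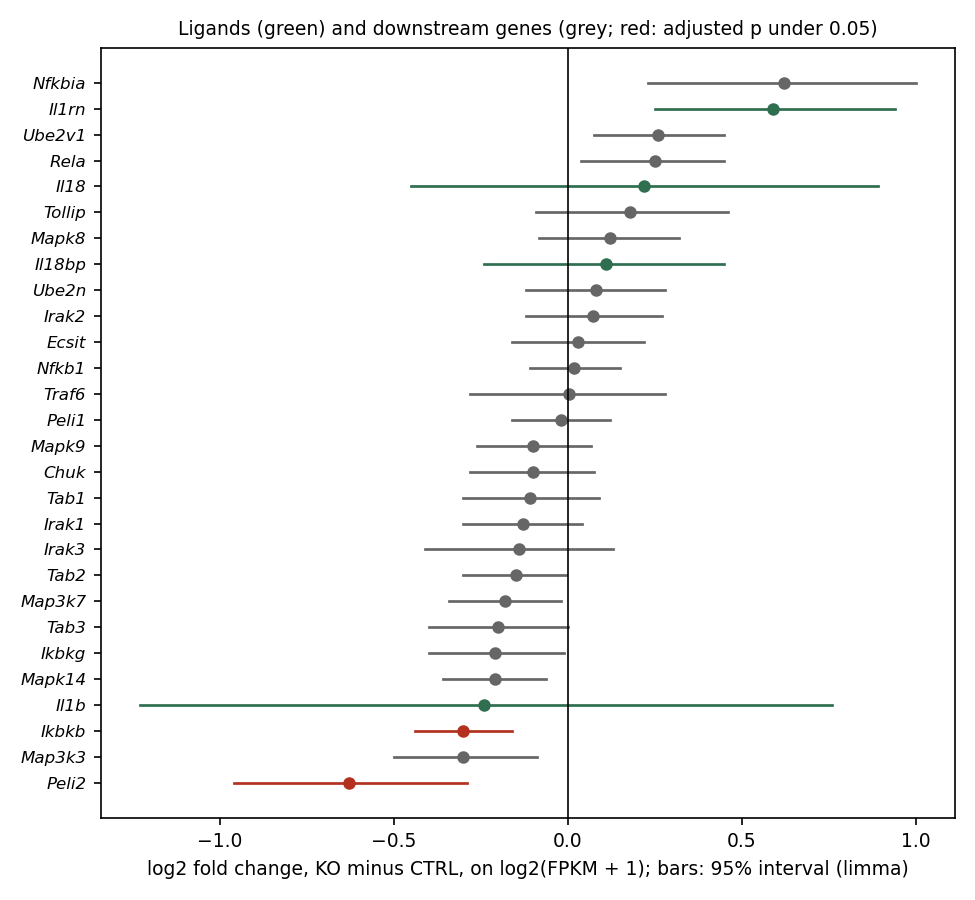
Log2 fold change of KO against CTRL with its 95% interval (limma, n = 2 libraries per group) for the 4 ligand genes tested (green) and the 24 downstream genes (grey, or red for adjusted p under 0.05). Ikbkb at -0.30 passed the threshold, as did Peli2 at -0.63, which reached the filter on low values through CTRL alone, and Nfkbia at 0.62 and Il1rn at 0.59 lay at the upper end without passing it.

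Genes that are known to mark or accompany ST2+ Treg cells were counted in the same way, to see whether they followed Il1rl1. The list is not the ST2+ Treg signature that the study reported as less enriched in intestinal KO Treg cells. It was chosen with earlier results of these data known, so that the counts below describe the list and are not independent evidence. All 12 on the list were tested, and 5 were higher in KO (5.10% of all genes tested were), 0 lower and 7 not past the threshold. At an unadjusted p under 0.05 in limma, 7 were higher and 1 was lower, where 16.3% and 18.4% of all genes tested were. Their median log2 fold change was 0.48, compared with -0.022 over all genes tested. Of the 12, 11 had a fold change above 0, opposite to Il1rl1, where 5271 of the 11399 genes tested did. Batf, a transcription factor of tissue Treg cells, rose from 79.7 and 72.9 FPKM to 108 and 108 FPKM (log2 fold change 0.50, limma, adjusted p 0.0346). Irf4, its partner, rose from 18.0 and 16.7 FPKM to 35.7 and 28.0 FPKM (0.83, adjusted p 0.0355), and Nfil3 rose from 28.9 and 34.0 FPKM to 73.2 and 52.9 FPKM (0.97, adjusted p 0.0405). The cytokine genes Il10 (log2 fold change 0.84, limma, adjusted p 0.0346) and Ebi3 (0.65, adjusted p 0.0329) rose as well. With no filter on low values, 0 genes of the whole table were called higher, so that these 5 calls were lost too. Klrg1, Pparg, Rora, Ikzf2, Areg and Gata3 had fold changes of 0.12 to 0.56 that did not pass, and Il2ra, the receptor chain for IL-2, had a fold change of -0.35 that did not pass either. This list shares Il2ra and Ikzf2 with the Treg markers, so it is not particular to ST2+ cells. In bulk RNA, the cells that expressed its genes were not identified.

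Among 8270 tested protein-coding genes with a mean above 5 FPKM in either group, the 5 genes whose profile over the 4 libraries lay nearest to that of Il1rl1 were Gpr83, Npas4, Dnah8, Zfp61 and Tlr7. Nearness was the Euclidean distance between log2(FPKM + 1) values after each gene's mean was removed, and it was 0.210 for Gpr83 and 0.286 for Tlr7. Gpr83, a receptor abundant in Treg cells, was at 36.8 and 44.2 FPKM in the controls, compared with 18.7 and 22.7 FPKM in KO. Tlr7, a Toll-like receptor that also signals through MyD88, was at 9.85 and 10.6 FPKM in the controls, compared with 4.73 and 6.18 FPKM in KO. Npas4 was at 6.92, 6.31, 2.51 and 3.44 FPKM in CTRL 1, CTRL 2, KO 1 and KO 2. Since this likeness takes in the difference between genotypes, the values are a description with no test. Within the family, Il18r1 was nearest to Il1rl1 at 0.780, Il1rap followed at 1.01, and Il1r2 was farthest at 1.98.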

How the data were processed

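Poly(A)+ RNA of splenic Treg cells was captured by oligo(dT), and read pairs of 150 bp were made. The authors mapped reads to mm10 with HISAT2 (2.2.1), counted them with featureCounts (2.0.1), compared the genotypes with edgeR (3.34.0) and deposited FPKM per gene. The step from counts to FPKM, the gene lengths, the annotation version, strand and multi-mapped reads are not given in the sources used here. Columns named WT were read as CTRL.

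KO was compared with CTRL by limma (3.58.1, R 4.3.3; lmFit, eBayes with trend) on log2(FPKM + 1), a scale that understates changes of low genes. Genes at 1 FPKM or more in at least 2 libraries were tested, two-sided, with Benjamini-Hochberg adjustment over all of them. The procedure was tested on simulated data. A count test was not the main test, since FPKM are not counts. Whole reads were recovered from the steps between low FPKM values: all 19888 genes above 0 came out whole (tolerance 0.001), and they are the fewest possible, because a factor shared by all 4 values of a gene is lost. Positions came from GENCODE vM21 (GRCm38), and windows ahead of starts from RefSeq (GRCm38.p6), in which 9 of the 10 genes had a window. Tables and plots used Python 3.11.15, pandas 2.3.3 and matplotlib 3.10.9.

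The family genes and gene lists were chosen with earlier results of these data known. Named were all family genes, ligand and downstream genes past the threshold or, where fewer than 4 passed, the 4 with the smallest p, ligands above 1 FPKM, ST2-linked genes past the threshold, expressed neighbours of the cluster, the 5 genes nearest to Il1rl1, and Setd2. Rela, Nfkb1, Irak1, Irak2, Traf6, Tollip and the ST2-linked genes that did not pass were named after their values were seen.

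Of the T cell markers 4 of 5 were found, and the other lists were found whole. Summed FPKM in CTRL 1, CTRL 2, KO 1 and KO 2 was 22.0, 18.5, 32.4 and 18.7 for B cells, 8.49, 11.4, 10.6 and 11.3 for CD8 T cells, 6.20, 5.34, 4.66 and 4.90 for NK cells, and 2.60, 1.72, 3.26 and 2.32 for mast cells and basophils. It was 1292, 1333, 1177 and 1248 for T cells and 1356, 1428, 1544 and 1441 for Treg cells.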

Additional observations from a re-analysis of the deposited data

How the results depend on the processing

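All alternatives were run. Il1rl1 stayed lower in KO in every one, at -1.30 to -0.83 with 1 library left out. With all 19888 genes above 0 tested, Il1rl1 was at -1.07 with an adjusted p of 0.0948 (limma), and 0 family genes passed in either direction, as did 0 genes of the whole table. With 1 library left out, 0 family genes and 0 ligand or downstream genes passed (lowest 0, highest 0), and 0 or 1 genes of the whole table. The arm left with 1 library is assumed to vary like the other group. Family genes called higher, 1 as reported, numbered 0 with equal summed FPKM, 0 with quantile normalization, 0 without a variance trend and 2 with the replicate block. Irak4 turned to 0.007 with median-ratio scaling, 0.011 with quantile normalization, 0.01 without CTRL 2 and 0.056 without KO 1, within -0.087 to 0.056 over libraries left out. Of the ligand and downstream genes, those lower numbered 1 instead of 2 with a pseudocount of 0.1, 1 with a mean above 5 FPKM, 1 with quantile normalization, 1 without a variance trend and 0 with no filter. Those higher numbered 1 instead of 0 with a mean above 5 FPKM, 1 without a variance trend, 1 with robust eBayes, 2 with limma-voom on recovered reads and 3 with the replicate block. The cause was not tested. Limma-voom called 881 genes higher and 1008 lower in the whole table, against 581 and 530. Il1rap has no value with the filter on a mean above 5 FPKM.

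Samples share replicate numbers, but no label ties a number to a litter or day, and 2 pairs are too few to establish a pairing (correlation of deviations across genes, Pearson 0.342, Spearman 0.055). With the number as a block, the adjusted p was 0.00713 for Il1rl1, 0.0415 for Myd88 and 0.00701 for Il1r2, which then passed the threshold. Chosen after seeing the data, the comparison of KO 2 with CTRL 2 alone gave -0.91 for Il1rl1, with no test. The intervals rest on the spread between 2 libraries per group, with each gene's variance drawn toward the trend over all genes tested. Il1r1, from at least 10 to 27 reads, was under 1 FPKM in every library and was not tested.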
